A study of Homo sapiens with 15 samples.

Results

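The zinc finger genes of human chromosome 19 are described here: protein-coding genes of GENCODE release 29 whose symbol is ZNF followed by digits. Of 240 such genes in the count table of 62754 gene IDs, the 200 with a mean of at least 1 CPM (a read count scaled by the library total) in the 3 DMSO libraries were taken. The members were thus chosen by their measured levels in DMSO, and levels in DMSO are given as a description. The study treated small cell lung cancer lines with CS2 or FB23-2, which its submitters name as inhibitors of FTO, an enzyme that removes methyl groups from adenosine in RNA. Libraries of messenger RNA were made from NCI-H69, labelled as the classic type of small cell lung carcinoma. Its 3 groups of 3 libraries each were CS2, FB23-2 and DMSO, the solvent control. The submitters call the replicates biological. Doses and times are not stated in the labels, all libraries came from 1 cell line, and the 6 samples of the line H82 are not analysed here.

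Most zinc finger proteins of this kind carry an array of C2H2 fingers that reads DNA and, near the N terminus, a KRAB domain that recruits the corepressor TRIM28. TRIM28 in turn brings the histone methyltransferase SETDB1 and heterochromatin proteins to the bound DNA, and many of the bound sites are retroelements. The genes arose by repeated duplication and sit in clusters of related copies, of which chromosome 19 holds the largest collection in the human genome.

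Library totals were between 29916267 and 45022633 counts. The library FB23-2 replicate 2 stood apart: genes of the mitochondrial genome took 10.97% of its counts, against 6.834% and 6.908% in the other FB23-2 libraries, 7.299% to 9.047% with CS2 and 5.179% to 5.687% with DMSO. Over the tested genes, pairs of libraries within a group had a chi-square per degree of freedom of 4.21 to 14.1. The exceptions were 50.1 and 48.1, in the pairs with FB23-2 replicate 2. Counts of calls among the 200 genes are given below with and without it, and counts of smaller groups also without it where one moved by over 1.5 times. Neuroendocrine markers fitted the label: CHGA, a secretory granule protein, had 503 ± 4.69 CPM with CS2, 415 ± 27.8 with FB23-2 and 603 ± 19.1 with DMSO (mean ± SD, n = 3 each, as for all values written in this way). COL1A2, a fibroblast gene, had 35.1 ± 3.63, 12.03 ± 2.87 and 52.9 ± 1.11 CPM in the same order, while the fibroblast gene DCN and the T cell gene CD3E were at 0 throughout. Other markers of blood and endothelium were present at low levels. In the same order, the endothelial gene VWF had 0.356 ± 0.279, 0.173 ± 0.107 and 2.06 ± 0.292 CPM. The blood cell gene PTPRC had 0.737 ± 0.288, 0.694 ± 0.0682 and 1.54 ± 0.0739 CPM. NEUROD1 stayed under 1 CPM on average and YAP1 was at 0 in all 9 libraries.

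Promoters are shown first, because they differ in sequence between the gene clusters described below. RefSeq promoters, 250 bases before and 50 after a gene's start on GRCh38.p14, were matched for 177 of the 200 genes, and for the 30 with several starts the one nearest the GENCODE start was used. Those printed were chosen after the values were seen, to show 3 promoters with the letters CCAATCAG, 1 with ACTACA followed by any 2 bases and TCCC, called the ZNF143 core below, and 3 with neither. They read 5′ to 3′ on the gene's strand, with these 2 patterns, found on either strand, in capitals. The genes are ZNF441 at chr19:11766750-11767049 (plus strand), ZNF91 at chr19:23395422-23395721 (minus strand), ZNF682 at chr19:20039456-20039755 (minus strand), ZNF331 at chr19:53520764-53521063 (plus strand), ZNF558 at chr19:8832255-8832554 (minus strand), ZNF274 at chr19:58182811-58183110 (plus strand) and ZNF154 at chr19:57709155-57709454 (minus strand).
ZNF441: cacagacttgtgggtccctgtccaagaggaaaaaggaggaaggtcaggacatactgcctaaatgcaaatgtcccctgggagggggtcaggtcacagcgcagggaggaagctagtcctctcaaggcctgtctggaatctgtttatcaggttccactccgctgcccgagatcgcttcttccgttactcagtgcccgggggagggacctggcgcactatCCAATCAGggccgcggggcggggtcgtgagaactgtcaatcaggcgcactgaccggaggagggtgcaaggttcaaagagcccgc
ZNF91: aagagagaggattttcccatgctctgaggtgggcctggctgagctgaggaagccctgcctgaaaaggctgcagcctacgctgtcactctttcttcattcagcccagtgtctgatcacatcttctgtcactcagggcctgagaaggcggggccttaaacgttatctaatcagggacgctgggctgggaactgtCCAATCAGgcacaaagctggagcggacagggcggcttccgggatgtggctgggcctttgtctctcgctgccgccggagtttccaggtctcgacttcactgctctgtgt
ZNF682: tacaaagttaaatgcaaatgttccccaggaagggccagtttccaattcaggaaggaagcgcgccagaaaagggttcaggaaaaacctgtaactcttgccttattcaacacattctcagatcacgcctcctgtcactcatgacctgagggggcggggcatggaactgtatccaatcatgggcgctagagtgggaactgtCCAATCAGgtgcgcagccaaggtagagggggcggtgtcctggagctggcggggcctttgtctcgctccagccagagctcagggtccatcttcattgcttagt
ZNF331: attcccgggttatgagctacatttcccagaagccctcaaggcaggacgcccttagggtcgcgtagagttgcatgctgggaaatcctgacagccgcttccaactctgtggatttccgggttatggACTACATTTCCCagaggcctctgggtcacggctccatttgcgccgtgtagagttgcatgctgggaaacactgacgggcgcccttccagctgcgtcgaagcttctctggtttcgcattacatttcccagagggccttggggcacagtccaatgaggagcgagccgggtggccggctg
ZNF558: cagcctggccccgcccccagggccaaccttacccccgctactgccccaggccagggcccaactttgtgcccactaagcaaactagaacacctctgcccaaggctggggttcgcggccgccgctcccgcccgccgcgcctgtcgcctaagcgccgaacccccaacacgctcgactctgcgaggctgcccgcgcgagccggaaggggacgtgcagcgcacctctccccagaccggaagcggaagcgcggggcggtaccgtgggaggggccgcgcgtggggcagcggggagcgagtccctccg
ZNF274: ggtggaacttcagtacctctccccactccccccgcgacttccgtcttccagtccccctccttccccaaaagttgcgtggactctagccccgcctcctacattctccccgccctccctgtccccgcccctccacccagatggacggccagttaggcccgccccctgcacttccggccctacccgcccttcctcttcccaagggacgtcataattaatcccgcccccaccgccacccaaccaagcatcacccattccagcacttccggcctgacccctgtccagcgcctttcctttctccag
ZNF154: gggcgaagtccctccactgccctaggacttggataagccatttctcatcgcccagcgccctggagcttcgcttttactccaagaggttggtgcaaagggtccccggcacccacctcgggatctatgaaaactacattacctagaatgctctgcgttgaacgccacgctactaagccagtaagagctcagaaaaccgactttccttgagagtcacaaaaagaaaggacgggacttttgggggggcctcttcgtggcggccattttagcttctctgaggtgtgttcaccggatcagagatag

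In all, 13 patterns were searched on both strands, without a rule fixed beforehand, and CCAATCAG was added after the promoters of ZNF441 and ZNF91 had been read. CCAATCAG, an extended CCAAT box, was in 41 of 177 promoters (23.2%), against 3.97% of 35116 RefSeq promoters of the same length. The ZNF143 core, part of the site of the activator ZNF143, was in 29 (16.4%), against 1.75%. The other 11 patterns, some of which overlap these, were in the following shares of the 177 promoters and of all promoters. TTCCGG, an ETS core, was in 54.2% against 17.2%, GGGGCGGGG in 23.7% against 15.7%, GCCATNTT in 14.7% against 6.58% and CCAAT in 49.7% against 34.6%. ACTACAN was in 30.5% against 8.45%, TGACGTCA in 3.95% against 1.85%, ACTACA followed by ATTCC in 1.13% against 0.231% and AAGATGG followed by CGGC in 1.13% against 0.849%. TATAAA was in 2.26% against 11.5%, CACGTG in 3.95% against 7.26% and TGATGNAA in 1.13% against 3.62%. A match describes letters in this window, not a bound site.

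The CCAATCAG promoters were not spread evenly. The pattern was in 22 of 22 matched promoters of the cluster at 19.67 to 24.13 Mb and in 13 of 16 of the cluster at 11.48 to 12.64 Mb, but in 0 of 47 at 55.48 to 58.48 Mb and 1 of 30 at 51.57 to 53.58 Mb. It lay on the gene's own strand in 38 of the 41, with its first base at a median of -57 from the start. The ZNF143 core was found mainly elsewhere, in 9 of 22 promoters at 36.18 to 37.82 Mb and 9 of 17 at 43.53 to 45.08 Mb. Many genes of a cluster are related copies, which was not measured here, so their promoters cannot be taken as independent.

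In DMSO the genes were expressed at low to moderate levels, from 1.07 to 256.7 CPM with a median of 16.2 CPM. Per kilobase of exon the median was 3.25 CPM, against 6.24 CPM for the 12450 protein-coding genes at 1 CPM or more. The highest was ZNF146, which encodes a protein made almost only of zinc fingers, at 290.1 ± 22.04 CPM with CS2, 316 ± 25.7 with FB23-2 and 257 ± 20.8 with DMSO. Just inside the limit of 1 CPM were ZNF382 (1.07 CPM), ZNF418 (1.15), ZNF91 (1.24) and ZNF575 (1.31). Just outside it were ZNF671 (0.978 CPM), ZNF625 (0.896), ZNF442 (0.745) and ZNF792 (0.710). Of the 40 genes below the limit, 19 had enough counts to be tested and 2 had no count in any library. All 200 genes above it were tested.

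With FB23-2 the genes shifted towards higher levels. Their summed level was 5403 ± 46 CPM with FB23-2, against 4414 ± 132 CPM with DMSO. By edgeR's quasi-likelihood test, adjusted with Benjamini-Hochberg over 19781 genes at a threshold of 0.05, 94 of the 200 were called higher than in DMSO and 16 lower. Over all genes tested the shares were 25.4% higher and 26.7% lower. The 12450 protein-coding genes at 1 CPM or more in DMSO, the same limit, had 29.3% higher and 30.8% lower. The median log2 fold change was 0.27 for the 200 genes against 0.00 for all genes. Without FB23-2 replicate 2 the counts were 90 higher and 17 lower. When each library was first corrected for GC content and gene span, they were 69 higher and 26 lower, with a median of 0.14. The DMSO values used here are those that chose the genes.

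With CS2 the shift was smaller. The summed level was 4856 ± 33 CPM with CS2, against the 4414 ± 132 CPM with DMSO above. The test called 65 genes higher (32.5%) and 29 lower (14.5%), against 24.3% and 25.3% of all genes. Protein-coding genes at 1 CPM or more in DMSO had 28.3% higher and 28.5% lower. The median log2 fold change of the 200 genes was 0.09. Without FB23-2 replicate 2 in the model, 78 were higher and 31 lower. After the correction for GC content and span, 55 were called higher (27.5%) and 47 lower (23.5%), and the median was -0.0031. All genes tested then had 23.4% higher and 26.4% lower. The balance towards higher calls with CS2 thus narrowed under that correction, and the median came to just below 0. That of all genes tested was then -0.022. Between the treated groups, which the choice of genes did not use, 29.7% of all genes were higher with FB23-2 than with CS2 and 30% lower. Protein-coding genes at 1 CPM or more in DMSO had 32.8% and 33.9%. Of the 200 genes, 73 were higher (36.5%) and 32 lower (16%), with a median of 0.09. That split was 70 and 40 after the correction. Without FB23-2 replicate 2 it was 64 and 32 with a median of 0.054, and the median was 0.141 without CS2 replicate 2 or FB23-2 replicate 1.

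Other groups of genes at 1 CPM or more in DMSO are given for comparison. Of 199 ZNF genes of other chromosomes, 68 were higher and 39 lower with FB23-2 than with DMSO (median 0.10), and 52 and 46 with CS2 (median 0.07). Of the 661 other protein-coding genes of chromosome 19, 134 were higher and 292 lower with FB23-2 (median -0.17), and 250 and 115 with CS2 (median 0.15). With the correction those 661 genes split into 183 higher and 224 lower with FB23-2 and, turned round, 178 and 198 with CS2 (median -0.03). The 199 ZNF genes then had 49 higher and 39 lower with FB23-2 and 39 and 55 with CS2 (median -0.05). Differences between these groups of genes were not tested.

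**Figure D1:**
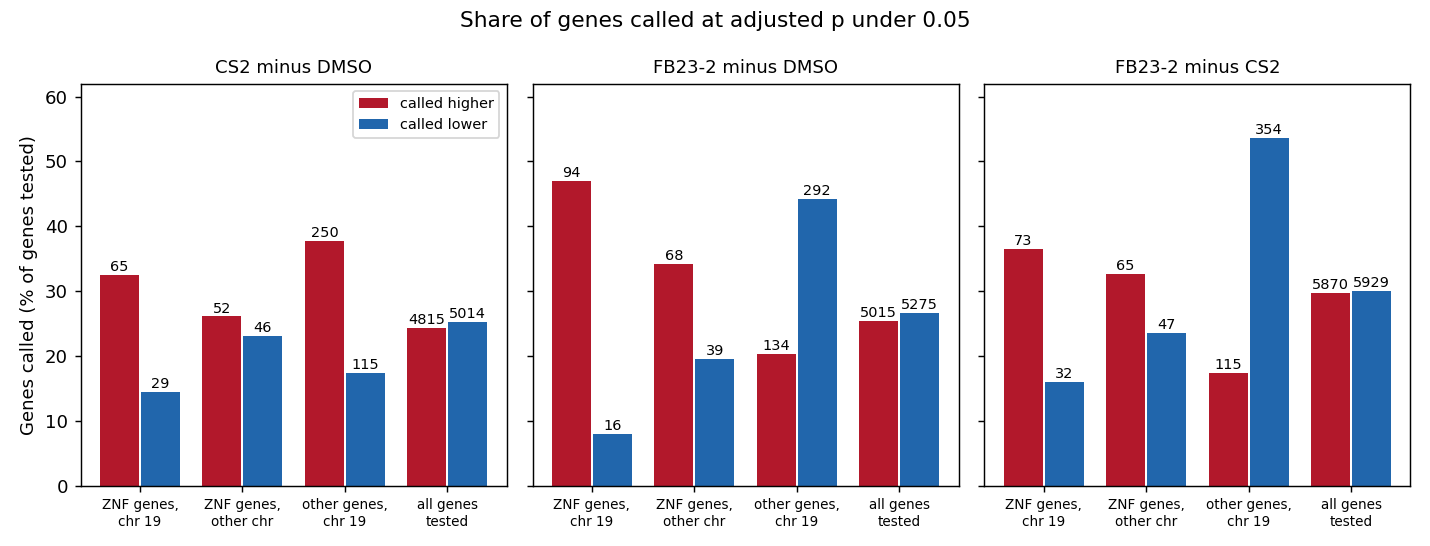
Bars give the percentage of genes called higher (red) and lower (blue) in each comparison, for 200 zinc finger genes of chromosome 19, 199 ZNF genes of other chromosomes, 661 other genes of chromosome 19 and 19781 genes tested. Numbers above bars are gene counts. With FB23-2 the chromosome 19 zinc finger genes have 94 higher and 16 lower calls. The 661 other protein-coding genes, from anywhere on the chromosome, have 134 and 292.

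ZNF441 and ZNF83 had the largest rises with FB23-2. ZNF441 had 77.6, 77.7 and 69.7 CPM with FB23-2, against 17.4, 25.6 and 24.2 with DMSO, a log2 fold change of 1.74 ± 0.12 (SE, adjusted p = 4.52e-10). With CS2 it had 39.9, 41.98 and 45.9 CPM (log2 0.93 ± 0.12, adjusted p = 2.36e-06). The 3 groups did not overlap, and FB23-2 was also above CS2 by 0.82 on the log2 scale (adjusted p = 5.10e-06). ZNF83 had 202, 197 and 170.4 CPM with FB23-2 and 109, 86.2 and 85.8 with CS2, against 60.8, 67.6 and 68.5 with DMSO. Its log2 fold changes were 1.53 ± 0.10 with FB23-2 and 0.51 ± 0.10 with CS2 (adjusted p = 1.92e-10 and 0.000219), and again no 2 groups overlapped.

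Others rose with FB23-2 and did not pass the test with CS2. ZNF274, which binds the 3′ ends of zinc finger genes themselves and brings SETDB1 there, had 25.1, 23.5 and 24.3 CPM with FB23-2, against 10.7, 12.2 and 12.5 with DMSO (log2 1.04 ± 0.11, adjusted p = 1.14e-07). With CS2 it had 13.6, 11.4 and 13.00 CPM, overlapping DMSO, and FB23-2 was above CS2 by 0.94 (adjusted p = 3.21e-07). ZNF333 had 35.3 ± 5.60 CPM with FB23-2, 15.7 ± 1.49 with CS2 and 16.02 ± 0.738 with DMSO, a log2 rise of 1.14 (adjusted p = 1.07e-07). Rises of this size were also seen in ZNF460 (log2 1.29) and ZNF529 (log2 1.00), whose adjusted p were 1.01e-06 and 1.21e-07. For these 4 genes FB23-2 differed from CS2 as well, by log2 0.92 to 1.20.

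With CS2 no rise reached a doubling, and several of its leading genes had lower levels with FB23-2 than with CS2. ZNF480 had 120.3, 146 and 133 CPM with CS2, against 65.3, 83.05 and 84.2 with DMSO (log2 0.78 ± 0.11, adjusted p = 4.76e-06). With FB23-2 it had 69.9, 79.1 and 82.7 CPM, which overlapped DMSO and was below CS2 by -0.78 on the log2 scale (adjusted p = 2.73e-06). ZNF836 had 13.4 ± 1.31 CPM with CS2, 6.09 ± 0.720 with FB23-2 and 7.35 ± 0.938 with DMSO, higher with CS2 (log2 0.86, adjusted p = 2.93e-05) and lower with FB23-2 than with CS2 (log2 -1.14, adjusted p = 6.81e-07). ZNF738, ZNF233, ZNF578 and ZNF813 rose with CS2 by log2 0.92, 0.91, 0.89 and 0.79, and all of them were lower with FB23-2 than with CS2. Of these 4, ZNF738 and ZNF233 were also called higher with FB23-2 than with DMSO (log2 0.41 and 0.39, adjusted p = 0.00144 and 0.0358). The correction ended both calls, and that of ZNF233 was also lost without DMSO replicate 1 or 2 or FB23-2 replicate 1. ZNF551, ZNF552 and ZNF574 rose with CS2 by log2 0.52, 0.52 and 0.47 and were lower with FB23-2 than with CS2 by log2 -0.73, -0.67 and -0.67.

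Some genes were called higher against DMSO with each compound, which is given side by side because both comparisons use the same DMSO libraries. ZNF682 rose by log2 0.68 with FB23-2 and 0.86 with CS2, ZNF433 by 0.95 and 0.97, and ZNF665 by 0.65 and 0.66. ZNF331, an imprinted gene, had 37.1, 33.9 and 39.6 CPM with FB23-2 and 32.02, 29.7 and 30.8 with CS2, against 20.6, 19.97 and 21.5 with DMSO (log2 0.83 and 0.57). ZNF799 rose by 1.07 and 0.68, but 24% of its 50-base transcript windows occur in other genes. ZNF724 rose by 0.72 and 0.72, with 49% of its windows in other genes.

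The deepest falls came with CS2. ZNF558, whose protein is known to repress the mitophagy gene SPATA18 in human neural progenitors, had 4.87, 4.95 and 6.05 CPM with CS2, against 28.1, 28.2 and 29.9 with DMSO (log2 -2.44 ± 0.12, adjusted p = 4.15e-12). With FB23-2 it had 31.4, 34.6 and 35.2 CPM, which did not pass the test against DMSO (log2 0.23, adjusted p = 0.0667) and was above CS2 by 2.67 (adjusted p = 8.16e-13). The CS2 libraries lay far below all others. Among low genes, ZNF154 had 0.951, 0.561 and 0.401 CPM with CS2, against 1.44, 2.04 and 2.67 with DMSO (log2 -1.67 ± 0.31, adjusted p = 0.000144). ZNF565, ZNF837, ZNF559, ZNF677 and ZNF414 fell with CS2 by log2 values of -1.52, -1.29, -1.20, -1.01 and -0.95. None of these 5 passed the test between FB23-2 and DMSO, and all were higher with FB23-2 than with CS2 (log2 0.61 to 1.24). Over 2-fold lower calls numbered 7 with CS2, against 9.57% of all genes, and over 2-fold higher calls 0, against 6.32%. With FB23-2 there were 2 over 2-fold lower, against 9.44%, and 8 over 2-fold higher, against 7.01%. Between FB23-2 and CS2, 13 were over 2-fold higher with FB23-2, against 11.8%, and 2 over 2-fold lower, against 11.3%. Without FB23-2 replicate 2, the over 2-fold higher and lower calls were 0 and 7 with CS2 and 9 and 1 with FB23-2. Between the compounds they were then 10 and 1. All genes tested include many of lower level than the limit used here. Of the 12450 protein-coding genes at 1 CPM or more in DMSO, 430 were over 2-fold higher and 825 lower with CS2. With FB23-2 these were 537 and 830, and between the compounds 1011 and 941, all 9 libraries included.

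ZNF471 moved in opposite directions. It had 0.475, 0.594 and 0.301 CPM with CS2 and 2.91, 3.34 and 2.70 with FB23-2, against 1.52, 1.91 and 1.51 with DMSO. The log2 fold changes were -1.83 ± 0.29 with CS2 and 0.87 ± 0.23 with FB23-2 (adjusted p = 2.75e-05 and 0.0038), and the difference between the compounds was 2.70 (adjusted p = 7.75e-08). ZNF100, ZNF841, ZNF254 and ZNF302 showed smaller changes of the same kind, with log2 values of 0.55, 0.44, 0.54 and 0.20 with FB23-2 and -0.49, -0.43, -0.36 and -0.30 with CS2. FB23-2 exceeded CS2 in each of them, by log2 0.51 to 1.04. The calls against DMSO of ZNF254 and ZNF302 did not all stand. The correction ended the FB23-2 call of each and the CS2 call of ZNF254. Leaving out any single DMSO or CS2 library ended the CS2 call of ZNF254 (adjusted p = 0.0552 to 0.148), and leaving out DMSO replicate 1 or 3, CS2 replicate 2 or FB23-2 replicate 2 ended the FB23-2 call of ZNF302 (adjusted p = 0.0501 to 0.187).

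Falls with FB23-2 were few. ZNF114 had 3.59, 4.30 and 4.75 CPM with FB23-2, against 8.34, 8.06 and 9.60 with DMSO (log2 -1.04 ± 0.15, adjusted p = 8.74e-06), and 7.69, 7.02 and 8.12 with CS2. ZNF428 fell by log2 -1.01 (adjusted p = 2.56e-06), with 24.7, 14.3 and 21.8 CPM with FB23-2, against 41.9, 37.3 and 42.02 with DMSO. Exons of SRRM5 overlap 28% of the exon bases of ZNF428, so its reads are uncertain. ZNF491 was lower with FB23-2 and with CS2 (log2 -0.97 and -0.79), as were ZNF358 (-0.55 and -0.55), ZNF787 (-0.31 and -0.76) and ZNF544 (-0.48 and -0.36). In ZNF358, 29% of the windows occur in other genes and 34% of exon bases are overlapped, so its reads are uncertain too. The FB23-2 calls of ZNF358 and ZNF787 were lost after the correction for GC content and span (log2 -0.24 and -0.01), and that of ZNF787 also without DMSO replicate 1 or 3 or FB23-2 replicate 1 or 3 (adjusted p = 0.0684 to 0.0941).

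**Figure D2:**
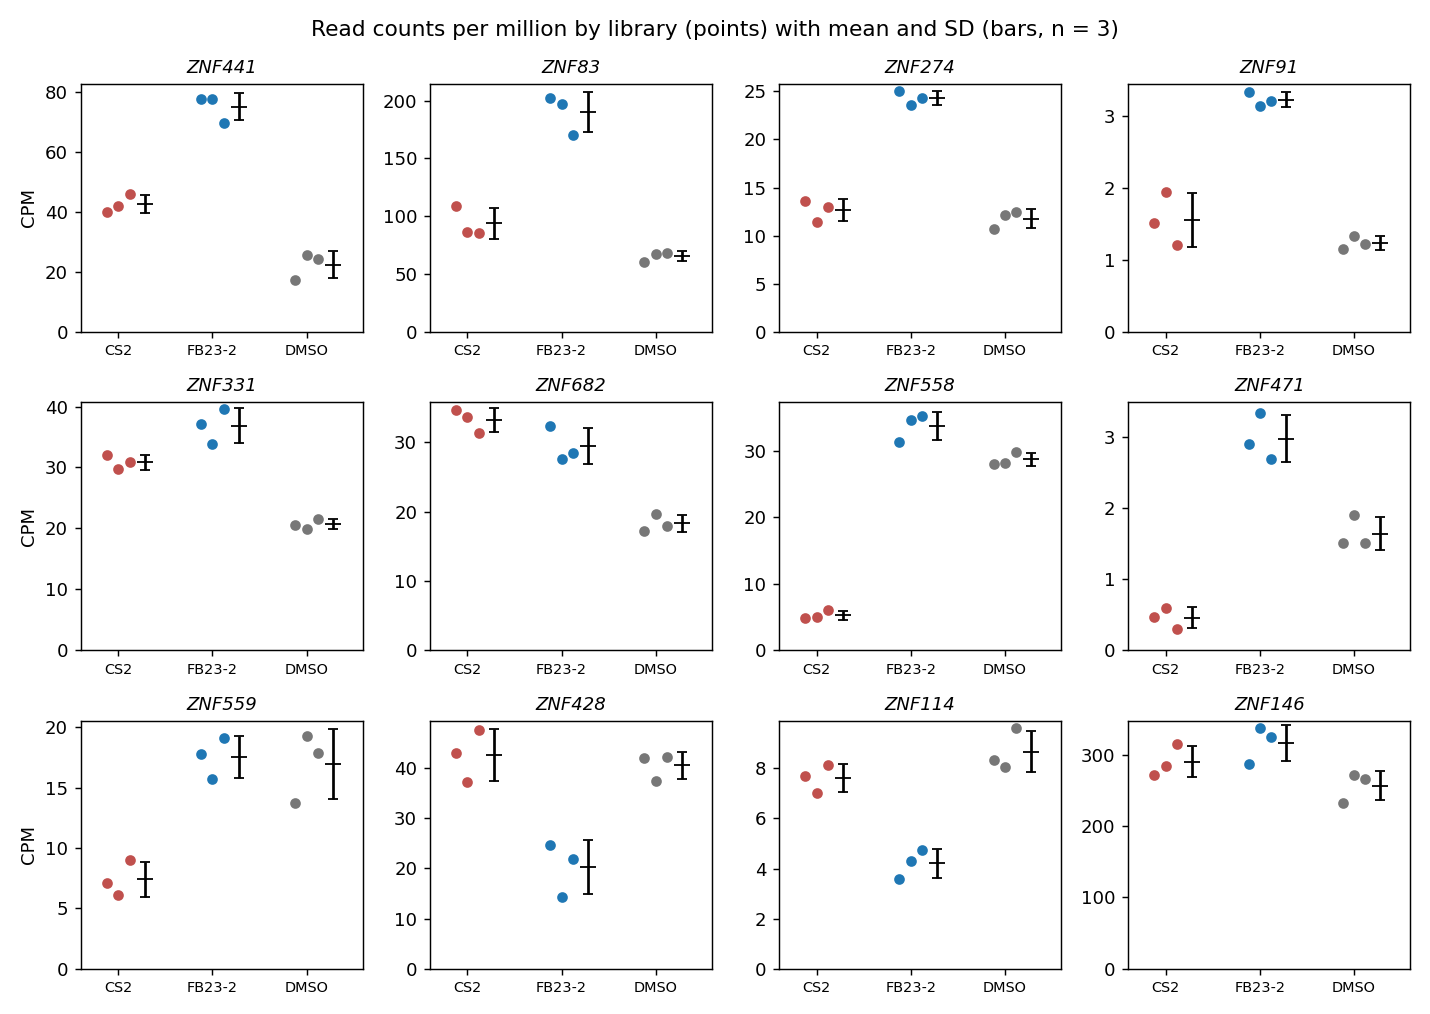
Each panel gives the CPM of 1 gene in the 3 libraries of CS2, FB23-2 and DMSO, with the mean and SD beside the points on axes that start at 0. ZNF441, ZNF83, ZNF274 and ZNF91 are highest with FB23-2, ZNF558, ZNF471 and ZNF559 are lowest with CS2, and ZNF428 and ZNF114 are lowest with FB23-2.

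Genes with a known role against retroelements moved unevenly. ZNF91, which represses SVA elements, had 3.34, 3.14 and 3.20 CPM with FB23-2, against 1.15, 1.34 and 1.22 with DMSO (log2 1.38 ± 0.22, adjusted p = 2.95e-05). With CS2 it had 1.51, 1.95 and 1.20 CPM (log2 0.33, adjusted p = 0.247), and it lies near the limit of 1 CPM. ZNF93, which represses LINE-1 elements, had a log2 fold change of 0.31 with FB23-2 (adjusted p = 0.0766) and rose with CS2 by 0.40 (adjusted p = 0.0269), which no longer passed once DMSO replicate 1 or CS2 replicate 2 was left out (adjusted p = 0.103 and 0.149). ZNF417 and ZNF587 act on endogenous retroviruses of the HERV-K family, and 38% and 35% of their windows occur in other genes. ZNF417 had 25.7 ± 1.82 CPM with FB23-2, 25.8 ± 0.922 with CS2 and 25.5 ± 1.12 with DMSO, and passed no test. ZNF587 fell with CS2 (log2 -0.38, adjusted p = 0.00415) and had log2 0.23 with FB23-2 (adjusted p = 0.064).

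Other genes of known function were mixed. ZNF473, a factor of histone mRNA 3′ end processing, passed the test against DMSO with neither compound (log2 0.13 with FB23-2 and -0.16 with CS2). ZNF350, a partner of BRCA1, gave 0.09 and 0.01 and passed neither. ZNF675, an inhibitor of TRAF6 signalling, rose with both, by 0.63 and 0.42 (adjusted p = 0.00271 and 0.0381). Its CS2 call was lost without any 1 of the DMSO libraries or without CS2 replicate 2 or 3 (adjusted p = 0.0542 to 0.144). ZNF224, a repressor of the aldolase A gene, rose by 0.63 with FB23-2 (adjusted p = 0.000147) and had 0.01 with CS2, but 40% of its exon bases are overlapped. ZNF304, a corepressor-recruiting factor of the INK4-ARF locus in colorectal cancer, fell with CS2 by log2 -0.30 (adjusted p = 0.0099). ZNF382 rose with FB23-2 (log2 0.92, adjusted p = 0.0197) from the lowest DMSO level of the 200 genes, a call lost after the correction for base composition and without DMSO replicate 1 or 2 or FB23-2 replicate 3 (adjusted p = 0.0625 to 0.0942). ZNF432 and ZNF568 passed no test. ZNF146 rose by 0.30 with FB23-2 (adjusted p = 0.0076), a call lost after that correction (adjusted p = 0.139) and without DMSO replicate 1 (adjusted p = 0.0581).

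Calls were counted along the chromosome, and each count can be read against the shares of all genes, 25.4% higher and 26.7% lower with FB23-2 and 24.3% and 25.3% with CS2. Genes were put in 1 cluster where neighbouring starts were at most 1 Mb apart, and 7 clusters held at least 12 of the 200 genes. In the cluster at 19.67 to 24.13 Mb, which holds ZNF91, ZNF43, ZNF100 and ZNF682, 19 of 25 genes were higher with FB23-2 than with DMSO and 0 lower (median log2 0.54), and with CS2 10 were higher and 2 lower (median 0.24). At 36.18 to 37.82 Mb, 15 of 23 were higher and 0 lower with FB23-2, and 8 and 1 with CS2. At 11.48 to 12.64 Mb, where ZNF441 and ZNF433 lie, 9 of 16 were higher and 1 lower with FB23-2, and 11 and 1 with CS2, with medians of 0.41 and 0.49.

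At 51.57 to 53.58 Mb, which holds ZNF83, ZNF480 and ZNF331, 18 of 36 genes were higher and 1 lower with FB23-2, and 20 and 3 with CS2. The cluster at 7.07 to 9.79 Mb, with ZNF558 and ZNF559, went the other way with CS2: 0 of 12 were higher and 5 lower, against 4 and 1 with FB23-2, and 8 were higher with FB23-2 than with CS2 and 0 lower. The most distal cluster, at 55.48 to 58.48 Mb, split, with 15 of 52 higher and 10 lower with FB23-2 and 9 and 13 with CS2. At 43.53 to 45.08 Mb, 6 of 21 were higher and 2 lower with FB23-2, and 3 and 1 with CS2. The higher shares with FB23-2 of these last 2 clusters, 28.8% and 28.6%, are near that of all genes. These clusters, which contain related copies, were not tested against each other.

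The same correction, applied to the clusters after the values were seen, moved several of these counts. With FB23-2 there were then 13 higher and 2 lower at 19.67 to 24.13 Mb, 7 and 2 at 36.18 to 37.82 Mb, 7 and 1 at 11.48 to 12.64 Mb, 13 and 5 at 51.57 to 53.58 Mb, 3 and 1 at 7.07 to 9.79 Mb, 15 and 9 in the distal cluster and 4 and 4 at 43.53 to 45.08 Mb. With CS2 there were, in the same order of clusters, 8 and 2, 7 and 2, 9 and 1, 18 and 3, 0 and 8, 8 and 22, and 1 and 4, so the balance at 43.53 to 45.08 Mb turned round. Without FB23-2 replicate 2 the cluster at 19.67 to 24.13 Mb had 17 higher and 0 lower with FB23-2 (median 0.36). That at 7.07 to 9.79 Mb then had 4 and 3 with FB23-2, 1 and 5 with CS2, and 8 and 1 between the compounds, and that at 51.57 to 53.58 Mb had 17 and 0 with FB23-2. With CS2, 11 and 1 were then called at 36.18 to 37.82 Mb, and 12 and 14 in the distal cluster.

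**Figure D3:**
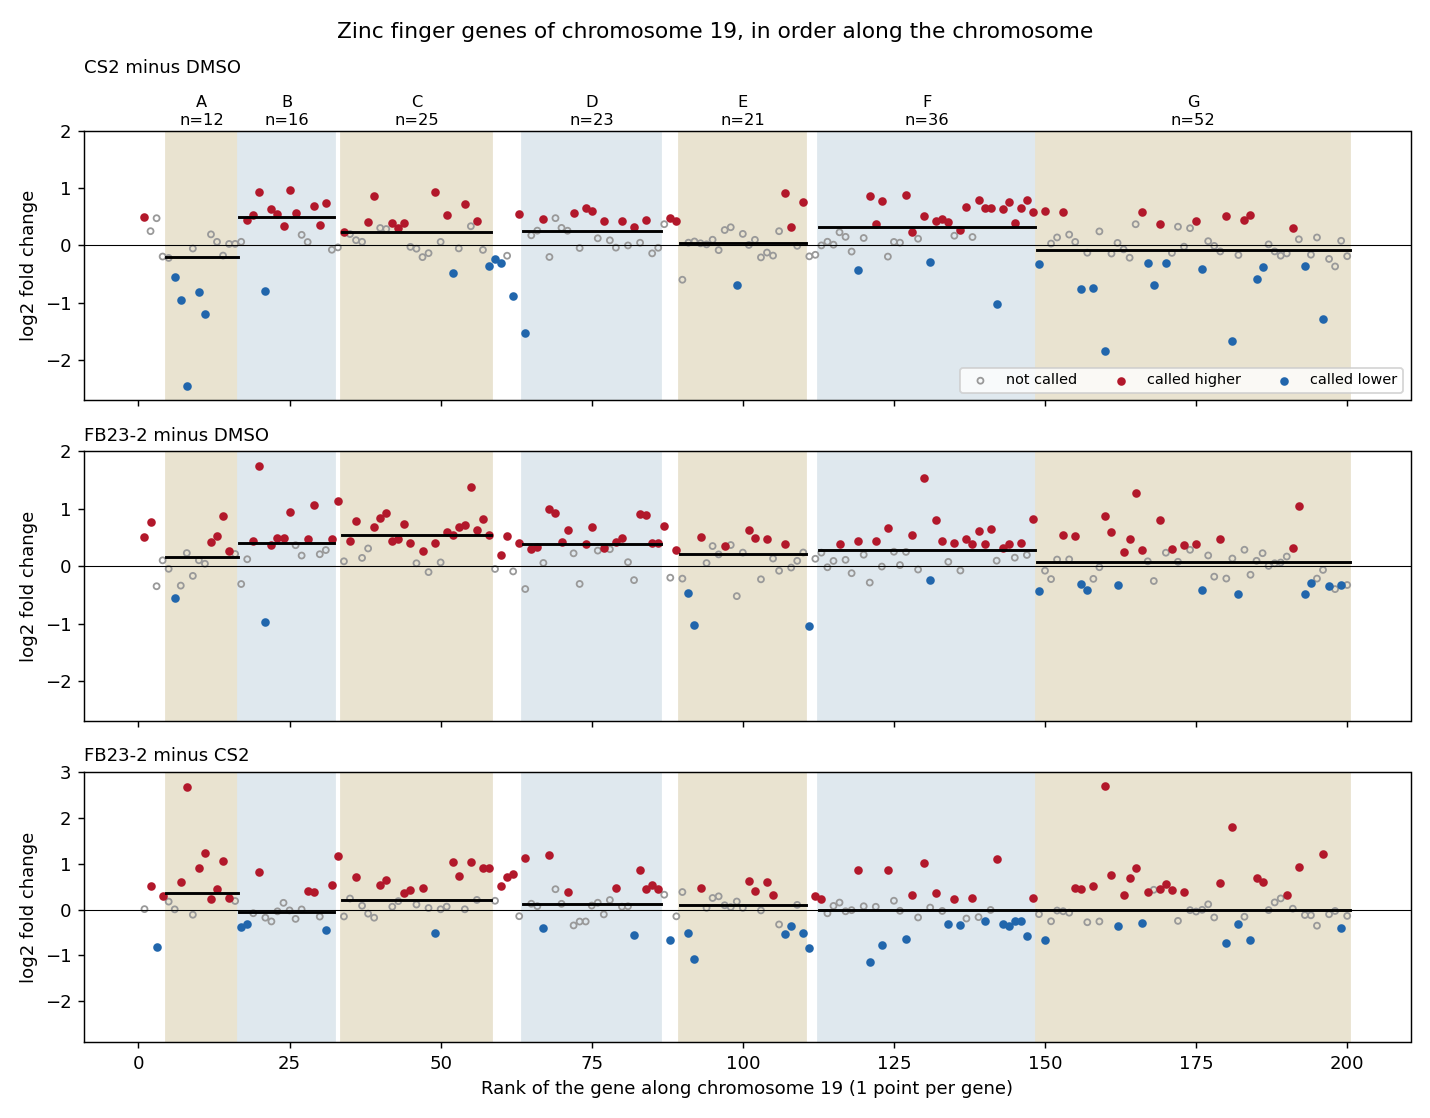
Points are log2 fold changes of the 200 genes, ranked by position along chromosome 19, in 3 panels for CS2 against DMSO, FB23-2 against DMSO and FB23-2 against CS2, top to bottom. Filled points were called, and black lines are medians of the 7 clusters lettered A to G from 7.07 to 9.79 Mb (A) to 55.48 to 58.48 Mb (G); in the middle panel cluster C has 19 higher and 0 lower calls.

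CCAATCAG and the ZNF143 core followed the clusters. CCAATCAG was added after reading the promoters of ZNF441 and ZNF91, both among the largest rises with FB23-2. Both genes are counted below among those with the pattern, so its counts with FB23-2 are a description. Over all genes tested, for comparison, 25.4% were higher and 26.7% lower with FB23-2, and 24.3% and 25.3% with CS2. Of the 41 genes with CCAATCAG, 27 were higher and 1 lower with FB23-2 (median log2 0.45), against 56 and 14 of the 136 without it (median 0.23). With CS2 the counts were 20 and 3 of 41 (median 0.30), against 35 and 23 of 136 (median 0.06). Between FB23-2 and CS2, which did not use the DMSO values, 15 of the 41 were higher with FB23-2 and 3 lower (median 0.06). Genes without the pattern had 50 and 23 of 136 (median 0.09), and all genes 29.7% and 30%. All but 6 of the 41 lie in the clusters at 11.48 to 12.64 Mb and 19.67 to 24.13 Mb, and of these 6, 3 were higher with FB23-2 and 1 with CS2. The pattern and the cluster therefore cannot be told apart here. Genes with the ZNF143 core had 13 of 29 higher and 5 lower with FB23-2, and 5 and 2 with CS2. After the correction, 20 genes with CCAATCAG were higher and 4 lower with FB23-2, and 16 and 5 with CS2, while those without it had 40 and 18 with FB23-2 and 30 and 38 with CS2. Those with the ZNF143 core then had 9 and 6 with FB23-2 and, turned round, 5 and 8 with CS2. Without FB23-2 replicate 2 the genes with that core had 13 and 6 with FB23-2 and 9 and 3 with CS2. Between the compounds the correction gave 12 and 8 with CCAATCAG, and 51 and 25 without. Genes with TTCCGG had 52 of 96 higher and 7 lower with FB23-2 (median 0.315). The 81 without it had 31 and 8 (median 0.136). With CS2 the counts were 27 and 15 with TTCCGG, and 28 and 11 without. Between the compounds they were 43 and 12, and 22 and 14. After the correction TTCCGG gave 40 and 10 with FB23-2 and 24 and 25 with CS2, against 20 and 12, and 22 and 18, without.

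A KRAB A-box pattern, matched in the translated coding sequences, was found in 167 of the 200 genes and is a pattern match, not a domain call. With FB23-2, 85 of these were higher (50.9%) and 9 lower (5.39%), with a median of 0.31. Of the 33 without a match 9 were higher (27.3%) and 7 lower (21.2%), with a median of -0.06. These last shares are near those of all genes, 25.4% and 26.7%. With CS2 the counts were 57 and 22 (34.1% and 13.2%, median 0.11) with the pattern. Without it they were 8 and 7 (24.2% and 21.2%, median 0.06), near the 24.3% and 25.3% of all genes. After the correction for GC content and span, 62 genes with the pattern were higher and 20 lower with FB23-2, and 7 and 6 without it. With CS2 it gave 49 and 36 (median 0.04) with the pattern and, turned round, 6 and 11 (median -0.11) without. Without FB23-2 replicate 2, genes lacking the pattern had 9 higher and 8 lower with FB23-2 (median -0.10). C2H2 fingers were also counted as pattern matches, so fingers that depart from the pattern are missed. The median was 12 matches, from 0 up to 31 in ZNF91. Genes with 16 or more matches had 27 of 46 higher (58.7%) and 1 lower (2.17%) with FB23-2. Those with 1 to 10 had 24 of 70 higher (34.3%) and 11 lower (15.7%). After the correction these were 21 and 5, and 15 and 13.

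Base composition and gene span went with the response. The median GC content of the longest transcripts was 42.3% for these genes and 48.1% for protein-coding genes. Among the 94 below 42% GC, 59 were higher and 2 lower with FB23-2, and among the 34 at 48% or more, 6 were higher and 12 lower. Protein-coding genes at large showed the same order with FB23-2, with 1399 of 3239 higher and 521 lower below 42% and 1340 of 6262 higher and 2542 lower at 48% or more. With CS2 the 2 sets differed: below 42%, 37 of the 94 were higher and 10 lower, but 700 and 1048 of the 3239. After the correction these were 31 and 12, and 868 and 962. At 48% or more, 6 of the 34 were higher with CS2 and 7 lower, and 2133 and 1447 of the 6262. The correction gave 5 and 16, and 1711 and 1879. For span, the calls with CS2 are given first. Of the 26 that span over 50 kb, 15 were higher and 2 lower with CS2 (median 0.41), while of 4874 protein-coding genes of that span 827 were higher and 2147 lower (median -0.18). Of the 21 that span up to 10 kb, 5 were higher and 6 lower, and of 2250 such protein-coding genes 781 and 451. With FB23-2, 15 of the 26 over 50 kb were higher and 0 lower (median 0.36), and 1581 and 1407 of the 4874 (median 0.04). Up to 10 kb, FB23-2 gave 4 and 5 of the 21, and 432 and 911 of the 2250. The genes below 42% GC had 55 higher and 1 lower with FB23-2 when FB23-2 replicate 2 was left out. After the correction they had 38 higher and 11 lower with FB23-2 and those at 48% or more 8 and 9, while protein-coding genes had 927 and 992 below 42% and 1777 and 2146 at 48% or more. Of the genes over 50 kb, 15 were then higher and 1 lower with CS2 (median 0.41), and of the protein-coding genes of that span 1286 and 1623 (median -0.04). With FB23-2 the corrected counts over 50 kb were 10 and 1, and 1487 and 1573. The correction removes each library's trend with GC content and span over the tested genes. The flatter corrected values of the protein-coding classes therefore follow from the correction itself and are no separate result. The class limits were set after the values were seen.

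**Figure D4:**
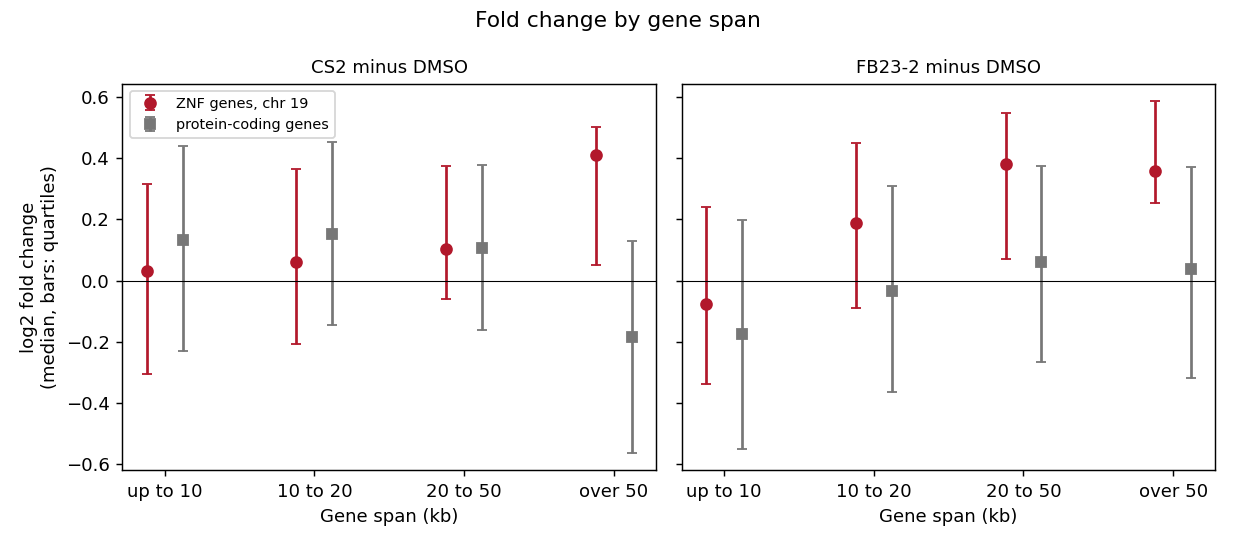
Points are median log2 fold changes and bars the quartiles, by gene span in kb, for the zinc finger genes of chromosome 19 (red circles) and protein-coding genes at 1 CPM or more (grey squares). Over 50 kb the zinc finger genes have a median of 0.41 with CS2 and the protein-coding genes -0.18.

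The corepressor through which KRAB proteins act was itself lower. TRIM28 had 789.8, 636 and 777 CPM with FB23-2 and 800.2, 749 and 784 with CS2, against 1047, 947 and 976 with DMSO (log2 -0.44 and -0.35, adjusted p = 4.83e-05 and 0.000537). SETDB1 had 35.8, 32.3 and 35.1 CPM with CS2, against 55.2, 53.7 and 59.99 with DMSO (log2 -0.71, adjusted p = 3.00e-06), and 54.2, 58.5 and 51.6 with FB23-2 (adjusted p = 0.737). Of 27 corepressor and heterochromatin genes, 4 were higher (14.8%) and 12 lower (44.4%) with FB23-2, against 25.4% and 26.7% of all genes, and 8 (29.6%) and 11 (40.7%) with CS2, against 24.3% and 25.3%. Without FB23-2 replicate 2 they were 3 and 15 with FB23-2, and after the correction 2 and 17. CHD3, of the NuRD complex, fell most with FB23-2 (log2 -1.07, adjusted p = 5.18e-10). UHRF1, which guides DNA methylation maintenance, was lower with FB23-2 (log2 -0.85) and higher with CS2 (log2 0.54). MPHOSPH8, of the HUSH silencing complex, rose with CS2 by 0.70 and with FB23-2 by 0.22. Whether these changes bear on the zinc finger genes was not tested.

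Zinc finger genes of chromosome 19 under other names were called at shares near those of all genes for rises, with 3 of 11 tested higher (27.3%) and 2 lower (18.2%) with FB23-2, and 3 (27.3%) and 4 (36.4%) with CS2. ZSCAN4, a gene of early embryos, had 1.57, 2.01 and 1.87 CPM with CS2, against 0.288, 0.191 and 0.178 with DMSO (log2 3.04, adjusted p = 8.23e-07). PEG3, an imprinted gene, rose with CS2 by log2 0.57, and ZSCAN18 rose with both, by 0.61 with FB23-2 and 0.95 with CS2. Of 7 tested genes derived from endogenous retroviruses, 1 was higher (14.3%) and 0 lower with FB23-2, against 25.4% and 26.7% of all genes. With CS2, 2 were higher (28.6%) and 3 lower (42.9%), against 24.3% and 25.3%, and after the correction 0 and 3. ERVW-1, the syncytin gene, had 0.0297, 0 and 0 CPM with CS2, against 0.628, 0.605 and 0.755 with DMSO, where 3 counts correspond to 0.0666 to 0.1 CPM in these libraries.

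Near-identical copies limit single genes. In 23 of the 200 genes over 20% of the 50-base transcript windows occur in other genes, and in 19 over 20% of exon bases are overlapped by another gene. Leaving out the 23 left 177 genes, of which 88 were higher and 12 lower with FB23-2 and 59 and 25 with CS2. After the correction these were 63 and 23, and 51 and 41. Groups whose 3 libraries did not overlap were found in 109 genes higher and 24 lower with FB23-2, against 29.3% and 30.1% of all genes, and in 80 and 41 with CS2, against 30% and 30.7%. Between FB23-2 and CS2 the groups were apart in 80 genes higher with FB23-2 and 31 lower, against 31.6% and 31%.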

How the data were processed

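Whole-number read counts per gene, deposited by the authors and not normalized, were analysed in the 9 NCI-H69 libraries (3 each of CS2, FB23-2 and DMSO); a column headed FB23 was taken as FB23-2. RNA was isolated with TRIzol, per the labels' protocols, and the submitters' processing notes name the genome build hg38. How reads were aligned and counted, and with which strand setting, is not given in the sources used here. Counts of overlapping genes and close copies may be mixed. Of the 62754 IDs, 58261 are in GENCODE release 29, which gave coordinates, spans, exons and coding sequences.

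Counts were filtered with filterByExpr (count minimum 10, total minimum 15), scaled by TMM and tested with edgeR 4.0.16 (R 4.3.3) in 1 model of all 9 libraries, with Benjamini-Hochberg adjustment over 19781 genes. The method was tested on simulated data. Totals of 29916267 to 45022633 counts make 3 counts worth 0.0666 to 0.1 CPM. CPM used library totals. Shared windows were 50 bases on both strands. No 2 libraries of a group agreed within sampling noise.

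Members and lists were chosen with earlier results of these data known. The printed promoters, the promoter patterns, and the limits of the span, GC content and finger classes, and the genes plotted by library, were chosen after values were seen, as were the corrected and left-out-library counts of the smaller groups. The KRAB pattern was loosened by reading protein sequences, before the fits were run. Genes named are the 8 highest and 8 lowest called, non-overlapping genes of each comparison, the 5 highest in DMSO, up to 6 of each joint pattern, genes with a known role and up to 4 called per list; not every one is given with values, and 1 marker gene is not reported here. DESeq2 1.42.0, other scalings, filters, memberships, a replicate block, single libraries left out and a correction for GC content and span (loess, span 0.3) were tried as alternatives.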

Additional observations from a re-analysis of the deposited data

How the results depend on the processing

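Correcting each library for GC content and span moved the comparisons with DMSO: 47 genes were then called lower with CS2 and the median log2 fold change was -0.0031, while with FB23-2 26 were lower and the median was 0.14. The cause was not tested. Leaving out each of the 9 libraries in turn gave medians of 0.084 to 0.126 for CS2, 0.25 to 0.30 for FB23-2 and 0.054 to 0.141 for FB23-2 against CS2. Counts higher and lower were then 52 to 78 and 22 to 31 with CS2, 77 to 100 and 11 to 17 with FB23-2, and 64 to 73 and 27 to 33 between the compounds. The other scalings, filters, memberships, DESeq2 and the 2-group fits kept every median's sign and every count within 1.5 times. Samples share only a replicate number, since same-numbered libraries correlated at -0.0303 to 0.167 and not every library correlated best with its own number. Between CS2 and FB23-2 all 3 did so, at 0.049 to 0.167 against -0.138 to 0.0203 for unlike numbers, which is a hint from the data and not the design. With the replicate block, 71 genes were higher and 31 lower with CS2, 101 and 20 with FB23-2, and 73 and 36 between the compounds. Of 115 calls of 59 named ZNF genes, 96 held under all 18 alternative fits, 19 were lost under at least 1, and none changed sign. The named corepressor genes, zinc finger genes under other names and retrovirus-derived genes are not among these 59. The tally therefore does not cover their calls. With 3 libraries a group, changes of genes near 1 CPM are measured least precisely.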
